A study of Mus musculus with 18 samples.

Results

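Liver mRNA of diabetic mice that had received intestinal microbiota from untreated donors (Con-FMT) was compared with that of diabetic mice without a transfer (HS), over all genes with enough expression to be tested. The 6 libraries, 3 in each group, were taken by their sample labels out of the 18 libraries of the series. Both groups were male ICR mice, an outbred stock, that ate a high-fat diet from 3 weeks of age until the end and received a single dose of 85 mg/kg streptozotocin (STZ), a compound that destroys pancreatic beta cells, at 5 weeks. Con-FMT mice were also inoculated by mouth once a day from 5 to 7 weeks of age with the luminal content of the small intestine, pooled from donors that had been given water. Livers were collected at 10 weeks of age, 3 weeks after the last inoculation. A sham inoculation of HS mice and the hour of collection are not given in the sources used here. Values of 2 further groups stand beside the results: A10-FMT, which shared the diet and STZ and received microbiota of donors dosed with 10 mg/kg alginate oligosaccharide, and Con, on the regular diet with saline. The oral transfer used pooled donor material, and nothing in the sources says that the 3 libraries of a group came from separate animals, so the p-values measure the spread between these libraries, which may be technical.

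The liver adjusts its mRNA to the hour of the day, to hormones and to what arrives from the gut through the portal vein. Its circadian clock is a loop in which the activators Arntl (BMAL1) and Clock switch on Per and Cry genes, Nr1d1 and the PAR bZIP factors Dbp, Tef and Hlf, whose products act back on the loop or on metabolic genes. Glucocorticoids induce genes such as Fkbp5, Per1 and the metallothioneins through the glucocorticoid receptor, and cytokines induce the acute-phase proteins, among them serum amyloid A. Secretory hepatocytes rely on chaperones of the endoplasmic reticulum (ER), whose genes respond to the load of unfolded protein. Bile acids, cholesterol, fatty acids, drugs and amino acids are processed by enzymes whose levels differ along the liver lobule, from periportal to pericentral cells.

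Promoters are shown for genes of 4 systems (clock, metal response, ER stress and NF-kB) that were far apart between Con-FMT and HS, because each holds a textbook motif of its system within 250 bases before a RefSeq start. Sequences are from RefSeq on the mouse build GRCm38.p6 and read 5′ to 3′ on the strand of the gene. The motif searched for each system stands in capitals, and both strands were searched. Ciart, a repressor of the clock (chr3:95882229-95882478, minus strand), holds the E-box CACGTG 3 times, 116, 58 and 44 bases before the start.
Ciart: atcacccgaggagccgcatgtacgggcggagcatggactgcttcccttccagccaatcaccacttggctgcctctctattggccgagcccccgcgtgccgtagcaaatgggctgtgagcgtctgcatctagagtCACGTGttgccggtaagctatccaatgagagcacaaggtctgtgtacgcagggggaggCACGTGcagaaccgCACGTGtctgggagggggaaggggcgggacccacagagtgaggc
Per3, a period gene of the clock (chr4:151044666-151044915, minus strand), holds the D-box TTANGTAA 205 and 158 bases before the start. 
Per3: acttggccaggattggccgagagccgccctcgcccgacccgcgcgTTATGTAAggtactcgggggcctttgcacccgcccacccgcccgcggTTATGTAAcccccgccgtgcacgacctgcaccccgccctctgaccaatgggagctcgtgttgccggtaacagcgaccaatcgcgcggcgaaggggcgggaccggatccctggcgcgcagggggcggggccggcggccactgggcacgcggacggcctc
Mt1 and Mt2 encode metallothioneins, small proteins that bind zinc and copper, and are neighbours on chromosome 8. In both, the capitals mark metal response elements, TGCACNC or TGCGCNC. The Mt1 window (chr8:94178839-94179088, plus strand) holds 1 match, 23 bases before the start used. The annotated Mt1 gene begins at 94178883, so most bases of this window lie inside the gene, and the sequence farther upstream was not searched. Mt2 (chr8:94172368-94172617, plus strand) holds 3, at 223, 128 and 50 bases, the last on the opposite strand.
Mt1: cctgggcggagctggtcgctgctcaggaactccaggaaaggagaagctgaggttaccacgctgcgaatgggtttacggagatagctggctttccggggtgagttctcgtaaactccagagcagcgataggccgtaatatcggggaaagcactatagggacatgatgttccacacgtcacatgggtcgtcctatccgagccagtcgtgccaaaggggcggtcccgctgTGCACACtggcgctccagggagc
Mt2: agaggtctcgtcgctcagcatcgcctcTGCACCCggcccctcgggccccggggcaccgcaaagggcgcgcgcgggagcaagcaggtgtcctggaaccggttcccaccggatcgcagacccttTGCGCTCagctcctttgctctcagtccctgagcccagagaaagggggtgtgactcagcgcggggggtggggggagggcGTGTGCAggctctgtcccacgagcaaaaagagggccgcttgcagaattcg
Derl3, a channel component of ER-associated degradation (chr10:75893148-75893397, plus strand), and Creld2, an ER-resident folding factor (chr15:88819396-88819645, plus strand), hold the ER stress response element CCAAT, 9 bases, CCACG on the opposite strand, starting 156 and 126 bases before the start.
Derl3: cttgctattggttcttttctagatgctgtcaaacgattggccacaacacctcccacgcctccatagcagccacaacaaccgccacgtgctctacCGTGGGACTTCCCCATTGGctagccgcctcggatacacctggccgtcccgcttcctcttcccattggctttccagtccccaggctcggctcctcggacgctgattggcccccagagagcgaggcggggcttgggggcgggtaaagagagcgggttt
Creld2: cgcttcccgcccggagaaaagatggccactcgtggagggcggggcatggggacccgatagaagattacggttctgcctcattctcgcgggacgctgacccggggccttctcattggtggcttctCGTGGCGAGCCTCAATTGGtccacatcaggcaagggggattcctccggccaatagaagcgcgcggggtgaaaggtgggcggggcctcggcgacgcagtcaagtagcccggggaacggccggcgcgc
Cxcl1, a chemokine that attracts neutrophils (chr5:90890995-90891244, plus strand), holds a kappa B site, GGGA, 1 base, TTTCC, 71 bases before the start.
Cxcl1: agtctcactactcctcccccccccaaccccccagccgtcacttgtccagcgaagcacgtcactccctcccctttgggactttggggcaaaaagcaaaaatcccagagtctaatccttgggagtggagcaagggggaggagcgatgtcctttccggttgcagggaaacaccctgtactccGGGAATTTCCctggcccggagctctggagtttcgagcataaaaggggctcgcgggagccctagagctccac
Of 32817 RefSeq promoter windows of the same length, 6.02% held the E-box, 2.06% the D-box, 21.4% either form of the metal response element, 0.113% the ER stress element and 0.357% the kappa B site. Derl3 also holds an E-box 168 bases before the start and Per3 further metal response matches, left in lower case, and none of these overlaps the capitals. The annotated genes Ciart and Per3, which reach to 95882257 and 151044707, also extend a short way into their windows. Other named genes did not follow the same rule. The window of Dbp held no E-box and that of Dnajb9 no ER stress element. Acacb, called lower, held an ER stress element and Stx2, also called lower, a D-box. The glucocorticoid response element AGAACA, 3 bases, TGTTCT was searched too, and the windows of Fkbp5, Per1, Mt1 and Mt2 held none. These matches describe the letters of the windows only, and the genes shown were chosen for display with their values known.

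The 6 libraries were close in depth. Steps between the lowest values put the HS libraries at 0.95 to 0.969 and the Con-FMT libraries at 1 to 1.02 of the typical library. Read totals are unknown, so values carry no counting interval, and with 3 libraries a group the precision is set by their spread. Hepatocyte markers were high in all 6 libraries: Alb was at 25877, 22470.1 and 29070.0 RPKM (reads per kilobase of gene length, scaled by library size) in HS replicates 1, 2 and 3 and at 29432, 25763 and 21271 RPKM in Con-FMT, the order in which values are listed throughout. Con-FMT replicate 3 stood apart, since 26 of 26 pancreatic acinar markers were present, from 24.3 RPKM for Try10 to 4709 RPKM for Amy2a5, an amylase. These markers summed to 4.02% of its RPKM, against 0.00367% and 0.00494% in the other Con-FMT libraries and 0.002% to 0.00413% in HS. The 26 markers had 0 calls by limma, 0 at an unadjusted p under 0.05. Because of this library, counts are given with and without it. Hemoglobin and other erythroid markers summed to 4435 to 12415 RPKM in HS and 1231 to 5736 RPKM in Con-FMT. In a bulk sample, fewer cells of a type and less RNA per cell cannot be told apart. Among the other groups of the fit, Con replicate 3 lay between the other 2 Con libraries in 95.1% of 857 genes that differed between them, so the spread within Con may be too small, and counts without Con are given below.

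Of 10159 genes tested with limma, 1849 (18.2%) were called at an adjusted p under 0.05, 374 (3.68%) higher and 1475 (14.5%) lower in Con-FMT than in HS. With unadjusted p-values, 3326 genes passed 0.05. The libraries of the 2 groups did not overlap for 3553 genes, or 35% of those tested. Without Con-FMT replicate 3, 1603 of 10126 genes were called (15.8%), 330 higher (3.26%) and 1273 lower (12.6%), and 1340 of the genes called with all libraries were called again in the same direction. The excess of lower genes depended on scale. The log2 change was below 0 in 69.8% of tested genes and above 0 in 30.2%, with a median of -0.11. Scaling each library to one common median gave 624 higher (6.14%) and 886 lower calls (8.72%), and the higher genes then made up 41.3% of the calls in place of 20.2%. The count also depended on which libraries set the spread, with 1360 genes called without Con in the fit and 777 with HS and Con-FMT alone, where 182 of 10225 genes (1.78%) were higher and 595 (5.82%) lower. Without Con-FMT replicate 2 the count was 1105 and without HS replicate 2 it was 1199.

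**Figure D1:**
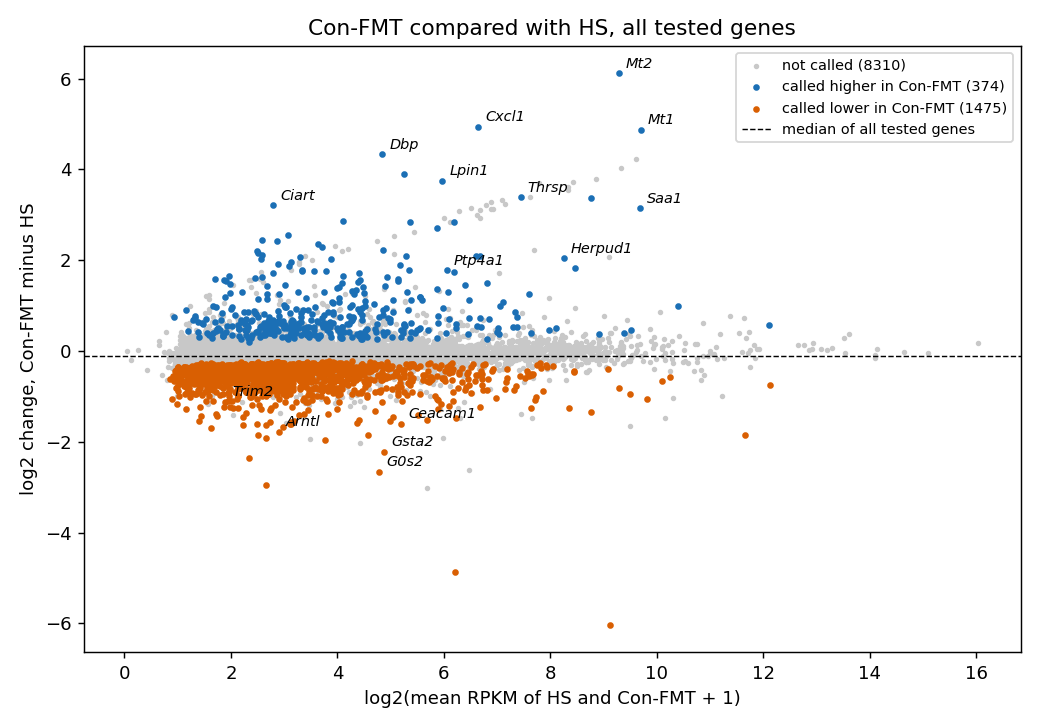
Log2 change, Con-FMT minus HS, against log2 of the mean RPKM of both groups plus 1, for each of the 10159 tested genes. Blue points are the 374 genes called higher and orange points the 1475 called lower in Con-FMT, and the dashed line marks the median of all genes, -0.11, so that most lower calls lie within 2 of the line while single genes such as Mt2 (6.11) and Dbp (4.34) stand far above it. The grey points above 2.5 are mostly the acinar markers of Con-FMT replicate 3, and the orange points under -4 are the globin genes Hbb-bt and Hbb-bs.

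Among called genes without overlap, those with the smallest adjusted p on the higher side were Dbp, Ciart, Ptp4a1, Coq10b, Sdc4, Zbtb16, Arhgef26, Nampt, Usp2, Maff, Herpud1 and Fkbp5. Ptp4a1 (chromosome 1, 30940303 to 30949877 of GRCm38.p6) encodes a tyrosine phosphatase first known as a growth-response gene of regenerating liver. HS had 27.3, 30.7 and 28.8 RPKM and Con-FMT 97.2, 99.7 and 108 RPKM, a log2 change of 1.78 ± 0.11 (SE, adjusted p = 1.76e-05). Coq10b, a coenzyme Q binding protein of mitochondria, had 13.5, 18.5 and 11.9 RPKM in HS and 55.6, 57.1 and 55.4 RPKM in Con-FMT, a log2 change of 1.89 ± 0.14 (SE, adjusted p = 5.11e-05). Every Con-FMT library was far above every HS library for both genes. Nampt (chromosome 12, 32820335 to 32853369), the rate-limiting enzyme of NAD salvage, rose from 10.2, 9.87 and 10.1 to 26.2, 28.8 and 25.1 RPKM (log2 change 1.32, adjusted p = 8.94e-05). Sdc4, a heparan sulfate proteoglycan of the cell surface, rose from 105, 112 and 122 to 286, 266 and 261 RPKM (log2 change 1.25, adjusted p = 5.11e-05). Arhgef26, an exchange factor for RhoG, rose from 3.37, 5 and 4.75 to 15.3, 15.6 and 21.2 RPKM (log2 change 1.77, adjusted p = 8.94e-05), and Maff, a small Maf factor, from 1.52, 1.17 and 1.04 to 7.98, 10.3 and 8.12 RPKM (log2 change 2.12, adjusted p = 0.000247). All 12 genes were called again without Con-FMT replicate 3 and after median scaling.

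The genes named on the lower side were Trim2, Zfp710, Stx2, Tjp3, Dtx4, Gpsm2, Selenoi, Gtf2ird1, Helz2, Lrfn3 and Sgk2. Trim2 (chromosome 3, 84160439 to 84308352), a ubiquitin ligase, had 4.55, 3.75 and 3.93 RPKM in HS and 1.32, 1.33 and 1.34 RPKM in Con-FMT, a log2 change of -1.12 ± 0.097 (SE, adjusted p = 0.00014). Stx2, a syntaxin of membrane fusion, fell from 6.04, 5.81 and 5.51 to 2.85, 2.38 and 2.93 RPKM (log2 change -0.87, adjusted p = 0.000218). Dtx4, a ubiquitin ligase of the Deltex family, fell from 4.71, 4.84 and 4.9 to 1.4, 1.67 and 1.24 RPKM (log2 change -1.26, adjusted p = 0.000377). For these genes the replicates of each group lay close together. Gpsm2, which orients the mitotic spindle, fell from 4.73, 4.41 and 4.67 to 1.98, 2.36 and 2.27 RPKM (log2 change -0.81, adjusted p = 0.000417). Selenoi, the ethanolamine phosphotransferase, fell from 9.11, 10.1 and 10.2 to 5.69, 4.65 and 5.21 RPKM (log2 change -0.81, adjusted p = 0.000419), and Lrfn3, an adhesion protein with leucine-rich repeats, from 8.42, 5.68 and 4.24 to 1.35, 0.88 and 1.47 RPKM (log2 change -1.64, adjusted p = 0.000607). Zfp710, Gtf2ird1, Helz2 and Sgk2 had log2 changes of -0.87, -0.87, -1.0 and -1.27. These genes, too, were called without replicate 3 and after median scaling.

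Of the 18 tested core clock genes, 7 were called higher and 5 lower in Con-FMT, where 3.68% of all genes were higher and 14.5% lower. Ciart was near the floor in HS, at 0.32, 0.42 and 0.32 RPKM, and at 12.2, 12.7 and 9.79 RPKM in Con-FMT, a log2 change of 3.21 ± 0.19 (SE, adjusted p = 1.07e-05). Per1, whose product represses CLOCK and BMAL1, had 1.31, 4.09 and 2.78 RPKM in HS and 13.3, 14.2 and 10.96 RPKM in Con-FMT, a log2 change of 1.96 ± 0.35 (SE, adjusted p = 0.00424). Per3 rose from 0.32, 0.69 and 0.70 to 2.48, 3.19 and 6.16 RPKM (log2 change 1.59, adjusted p = 0.00375), with its highest value in Con-FMT replicate 3. Arntl, the activator, went the other way, from 8.84, 8.86 and 13.4 RPKM in HS to 4.92, 1.26 and 1.59 RPKM in Con-FMT (log2 change -1.78, adjusted p = 0.00771), with Con-FMT replicate 1 above the other 2. For none of these 4 genes did the groups overlap. The other called members, named after their values were seen, were Per2, Cry2, Nr1d2 and Bhlhe40 on the higher side and Clock, Npas2, Csnk1d and Fbxl21 on the lower side. Repressor genes (Per1, Per2, Per3, Cry2, Ciart, Nr1d2, Bhlhe40) were thus higher and activator genes (Arntl, Clock, Npas2) lower, while the repressors Cry1 and Nr1d1 were not called. Without replicate 3, 7 were called higher and 3 lower, as also after median scaling, and with HS and Con-FMT alone 7 and 2.

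Of 18 clock output genes, 6 were called higher and 5 lower, where 3.68% of all genes were higher and 14.5% lower. Without replicate 3 there were 5 and 3, and with HS and Con-FMT alone 4 and 1. Dbp (chromosome 7, 45705100 to 45710203), a PAR bZIP factor that drives detoxification genes, was at 1.73 ± 0.53 RPKM (SD, n = 3) in HS and at 53.4 ± 1.86 RPKM (SD, n = 3) in Con-FMT, with the Con-FMT libraries at 51.8, 55.5 and 52.99 RPKM. Tef, its relative, had 9.88, 10.6 and 8.36 RPKM in HS and 24.4, 26.6 and 42.3 RPKM in Con-FMT, a log2 change of 1.56 ± 0.22 (SE, adjusted p = 0.00152). Usp2, a deubiquitinase with strong daily rhythm, rose from 0.56, 1.28 and 0.64 to 11.7, 6.01 and 9.75 RPKM (log2 change 2.45, adjusted p = 0.000127). Ppp1r3c, a glycogen-targeting phosphatase subunit, fell from 60.3, 31.8 and 44.2 to 27.3, 13.9 and 7.72 RPKM (log2 change -1.54, adjusted p = 0.0241), and its call was lost without replicate 3 (adjusted p = 0.0622). The HS and Con-FMT groups did not overlap for 13 of the 18 core and 12 of the 18 output genes, against 35% of all genes. In the plot of clock genes, Con lay near HS for most of them and A10-FMT near Con-FMT, with Dbp at 0.66, 0.58 and 0.68 RPKM in Con and 98.8, 48.8 and 86.2 RPKM in A10-FMT.

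**Figure D2:**
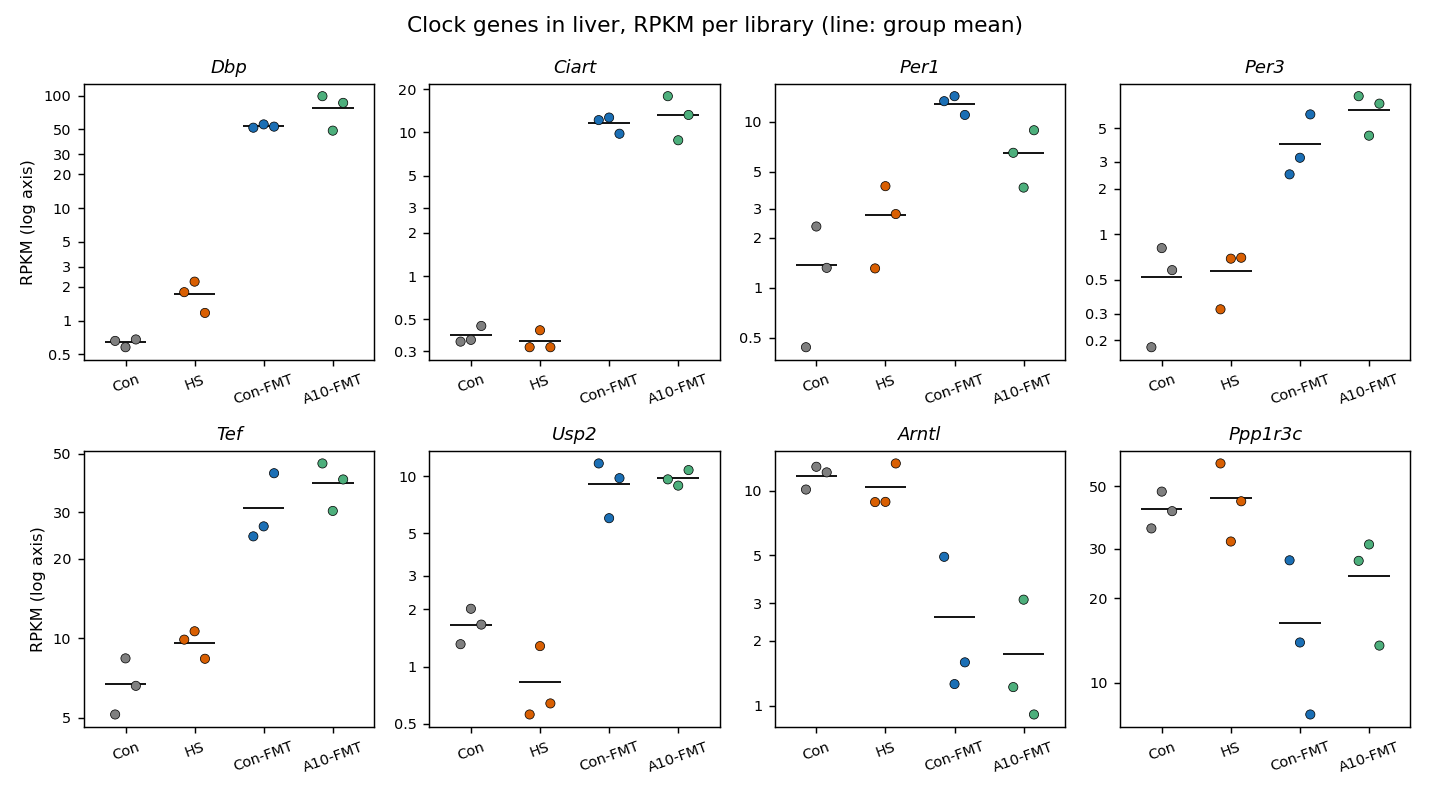
RPKM on a log axis in each library of Con, HS, Con-FMT and A10-FMT for 8 clock genes, replicates 1 to 3 from left to right and a line at the group mean. Con-FMT lies above HS for Dbp, Ciart, Per1, Per3, Tef and Usp2, and under it for Arntl and Ppp1r3c, with no overlap between HS and Con-FMT in any of the 8.

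Of 18 glucocorticoid-responsive genes, 8 were called higher and 0 lower in Con-FMT, where 3.68% of all genes were higher. The 2 metallothioneins had the highest fold changes of the list. Mt2 was at 11.2, 19.01 and 20.2 RPKM in HS and 1599, 928 and 1152 RPKM in Con-FMT, a log2 change of 6.11 ± 0.72 (SE, adjusted p = 0.000652). Mt1 was at 33.2, 62.1 and 73.1 RPKM in HS and 1892, 1454 and 1454 RPKM in Con-FMT, a log2 change of 4.87 ± 0.71 (SE, adjusted p = 0.00176). All 3 Con-FMT libraries lay more than 10 times above every HS library for both genes, while the Con libraries were widely spread, at 736, 58.1 and 493 RPKM for Mt1 and 311, 23.4 and 199.8 RPKM for Mt2. Mt1 and Mt2 are close copies, between which the mapping could have split reads. Fkbp5, a co-chaperone of the glucocorticoid receptor, had 5.85, 4.95 and 4.71 RPKM in HS and 23.97, 14.7 and 22.4 RPKM in Con-FMT, a log2 change of 1.77 ± 0.18 (SE, adjusted p = 0.000365). Zbtb16, a zinc-finger repressor, had 0.96, 1.47 and 1.48 RPKM in HS and 9.24, 6.75 and 9.41 RPKM in Con-FMT, a log2 change of 2.03 ± 0.16 (SE, adjusted p = 6.73e-05). Lpin1, a phosphatidate phosphatase that also acts in the nucleus as a coactivator, rose from 3.11, 17.4 and 7.14 to 114, 118 and 108 RPKM (log2 change 3.75, adjusted p = 0.00104), with the 3 Con-FMT libraries within 10 RPKM of each other. The median log2 change of the 18 genes was 0.78, against -0.11 over all genes. The list had 8 higher calls also without replicate 3, after median scaling and with HS and Con-FMT alone. Tsc22d3, Sgk1 and Tat, common members of such lists, were not called.

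Genes of inflammation and early response were also among the higher calls. Of 19 targets of TNF and NF-kB, 11 were called higher and 1, Tnfaip2, lower, where 3.68% of all genes were higher and 14.5% lower. Cxcl1 was at 2.89, 2.87 and 5.04 RPKM in HS and 36.6, 203 and 343 RPKM in Con-FMT, a log2 change of 4.94 ± 0.70 (SE, adjusted p = 0.00152), with a wide spread within Con-FMT. Socs3, the feedback inhibitor of cytokine signalling, rose from 4.83, 2.31 and 1.75 to 16.2, 11.5 and 31.9 RPKM (log2 change 2.35, adjusted p = 0.00369). Tnfaip3, which dampens NF-kB, rose from 0.46, 0.62 and 0.65 to 1.56, 11.2 and 2.82 RPKM (log2 change 1.64, adjusted p = 0.0319), and Ccl2, a monocyte chemokine, from 0.29, 0.59 and 1.48 to 2.06, 8.85 and 3.25 RPKM (log2 change 1.55, adjusted p = 0.0226). Both were highest in Con-FMT replicate 2. Without replicate 3, 7 members of the list were called higher, and with HS and Con-FMT alone 4, so the count depended on which libraries were in the fit.

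Of 20 immediate-early genes, 10 were called higher and 0 lower, with a median log2 change of 1.28, where 3.68% of all genes were higher. Junb, a subunit of AP-1, had 9.05, 7.7 and 7.62 RPKM in HS and 35.5, 63.9 and 116 RPKM in Con-FMT, a log2 change of 2.84 ± 0.43 (SE, adjusted p = 0.00221). Gadd45g, a growth-arrest gene, rose from 31.5, 12.6 and 6.34 to 126, 95.7 and 73.6 RPKM (log2 change 2.71, adjusted p = 0.00874), and Btg2, an antiproliferative gene, from 3.15, 4.56 and 2.78 to 20.5, 24.2 and 17.9 RPKM (log2 change 2.29, adjusted p = 0.00381). The 10 calls were 9 without replicate 3 and 11 with HS and Con-FMT alone. Of 22 p53 targets, 3 were called higher (Btg2, Gadd45a and Trp53inp1) and 0 lower, and their median was -0.05. Of 19 apoptosis regulators 1, the survival gene Bcl2l1, was called (log2 change 0.60, adjusted p = 0.037).

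Of 27 acute-phase proteins, 5 were called higher and 0 lower, where 3.68% of all genes were higher. The log2 change was above 0 in 27 of 27, against 30.2% of all genes, with a median of 0.40. Saa1 had 354, 162 and 67.3 RPKM in HS and 1001, 1815 and 1519 RPKM in Con-FMT, a log2 change of 3.15 ± 0.92 (SE, adjusted p = 0.0374). Saa2 had 133, 87.6 and 33.3 RPKM in HS and 750.3, 591 and 1021 RPKM in Con-FMT, a log2 change of 3.37 ± 0.92 (SE, adjusted p = 0.0277). Saa1 and Saa2 are near-identical copies whose reads could have been split. Groups did not overlap for either, but their calls were lost without replicate 3 (adjusted p = 0.0726 and 0.0642), although the log2 changes were 3.09 and 3.17. The Con libraries, which share in the spread of the fit, were at 6422, 296 and 3569.8 RPKM for Saa1, and with HS and Con-FMT alone the adjusted p was 0.0297 for Saa1 and 0.0198 for Saa2. Steap4, a metalloreductase induced by cytokines, rose from 41.8, 34.5 and 28.6 to 127, 114 and 233 RPKM (log2 change 2.08, adjusted p = 0.0075). Neutrophil markers summed to 1.72 to 6.35 RPKM in HS and 5.09 to 9.2 RPKM in Con-FMT, with 2 of 10 tested and Ly6g listed at 0 in 4 of the 6 libraries. Kupffer cell and macrophage markers summed to 186.5 to 268 RPKM in HS and 146 to 225 RPKM in Con-FMT, with 12 tested. None of these markers was called by limma, and 1 passed an unadjusted p of 0.05. The part of these cells in the inflammatory genes was not tested. Of 35 complement and coagulation genes 1, C6, was called higher (log2 change 0.70, adjusted p = 0.00696).

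**Figure D3:**
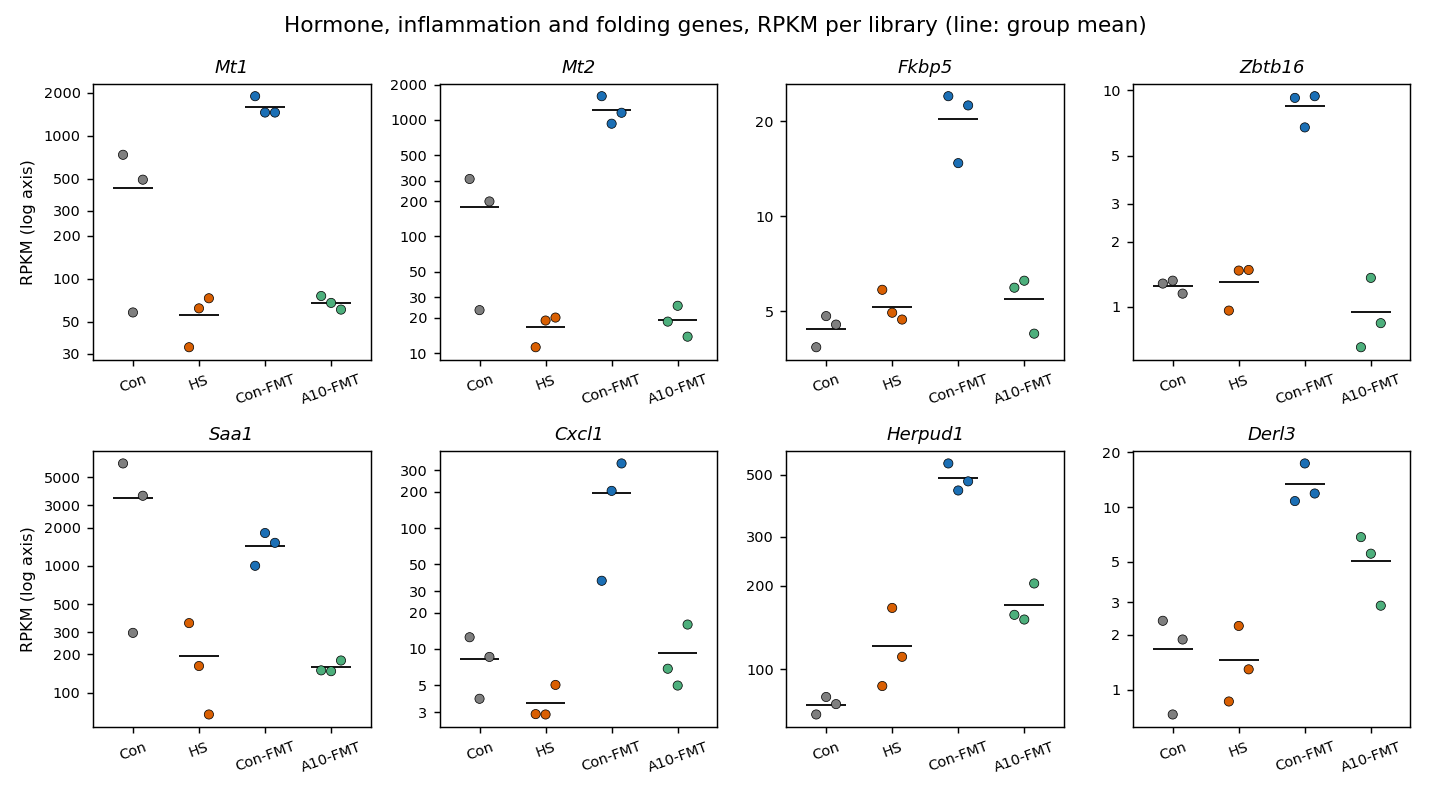
RPKM on a log axis in each library of Con, HS, Con-FMT and A10-FMT for 8 genes of hormone response, inflammation and protein folding, replicates 1 to 3 from left to right and a line at the group mean. All Con-FMT libraries lie above all HS and A10-FMT libraries in each of the 8, whereas Con reaches or exceeds Con-FMT for Saa1, at 296 to 6422 RPKM.

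Of 30 tested protein-folding genes of the ER, 8 were called higher and 0 lower, where 3.68% of all genes were higher. A log2 change above 0 was found in 26, against 30.2% of all genes. Herpud1 (chromosome 8, 94386429 to 94395371), which recruits the degradation machinery to the ER membrane, had 87.1, 166 and 111 RPKM in HS and 549.8, 439 and 474 RPKM in Con-FMT, a log2 change of 2.04 ± 0.20 (SE, adjusted p = 0.000365). Derl3 had 0.86, 2.23 and 1.29 RPKM in HS and 10.8, 17.3 and 11.9 RPKM in Con-FMT, a log2 change of 2.55 ± 0.32 (SE, adjusted p = 0.000712). HS and Con-FMT were far apart for both genes. Creld2 rose from 23.04, 63.2 and 51.1 to 164, 106 and 93.5 RPKM (log2 change 1.46, adjusted p = 0.0256), and Dnajb9, a co-chaperone of BiP, from 36.9, 65.6 and 65.6 to 127, 108 and 123 RPKM (log2 change 1.12, adjusted p = 0.011). HS replicate 1 was the lowest library for both. The other 4 calls, named after their values were seen, were Syvn1, Xbp1, Dnajc3 and Edem1. The abundant chaperones Hspa5, Hsp90b1, Calr and Pdia4 were not called. Without replicate 3 there were 6 higher calls, and with HS and Con-FMT alone 4.

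Of 21 genes of the integrated stress response, 5 were called higher and 1 lower. For this and the lists that follow here, the shares of all genes were 3.68% higher and 14.5% lower. Chac1, a glutathione-degrading enzyme induced by ATF4, rose from 2.36, 1.21 and 0.40 to 6.51, 11.7 and 15.8 RPKM (log2 change 2.42, adjusted p = 0.00104). Cebpb, a transcription factor of the acute-phase and stress responses, rose from 62, 67.9 and 41.5 to 116, 194 and 183 RPKM (log2 change 1.5, adjusted p = 0.00424). Atf5 fell from 224, 154 and 150.2 to 133, 117 and 78.1 RPKM (log2 change -0.69, adjusted p = 0.0341), a call lost without replicate 3 (adjusted p = 0.0851). Of 25 cytosolic heat shock proteins, 3 were called higher (Hspb8, Chordc1 and Ahsa1) and 24 had a log2 change above 0. Of these calls, 1 was left without replicate 3 (Ahsa1). Of 46 ribosome biogenesis genes, 11 were called higher and 1, Nat10, lower. Gnl3, the nucleolar GTPase nucleostemin, rose from 12.1, 12.5 and 13.5 to 20.4, 26.03 and 20.8 RPKM (log2 change 0.77, adjusted p = 0.00167), and Nop58, a core snoRNP protein, from 13.2, 13.99 and 13.8 to 22.4, 25.4 and 19.3 RPKM (log2 change 0.66, adjusted p = 0.00221). After median scaling 17 were higher, and without replicate 3, 9. None of 79 cytosolic ribosomal protein genes was called by limma, with a median of 0.06, 1 at an unadjusted p under 0.05 and 1 call after median scaling. Rpl36 and Rpl34, named for the size of their change, had log2 changes of 0.27 and 0.24 (adjusted p = 0.472 and 0.288).

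**Figure D4:**
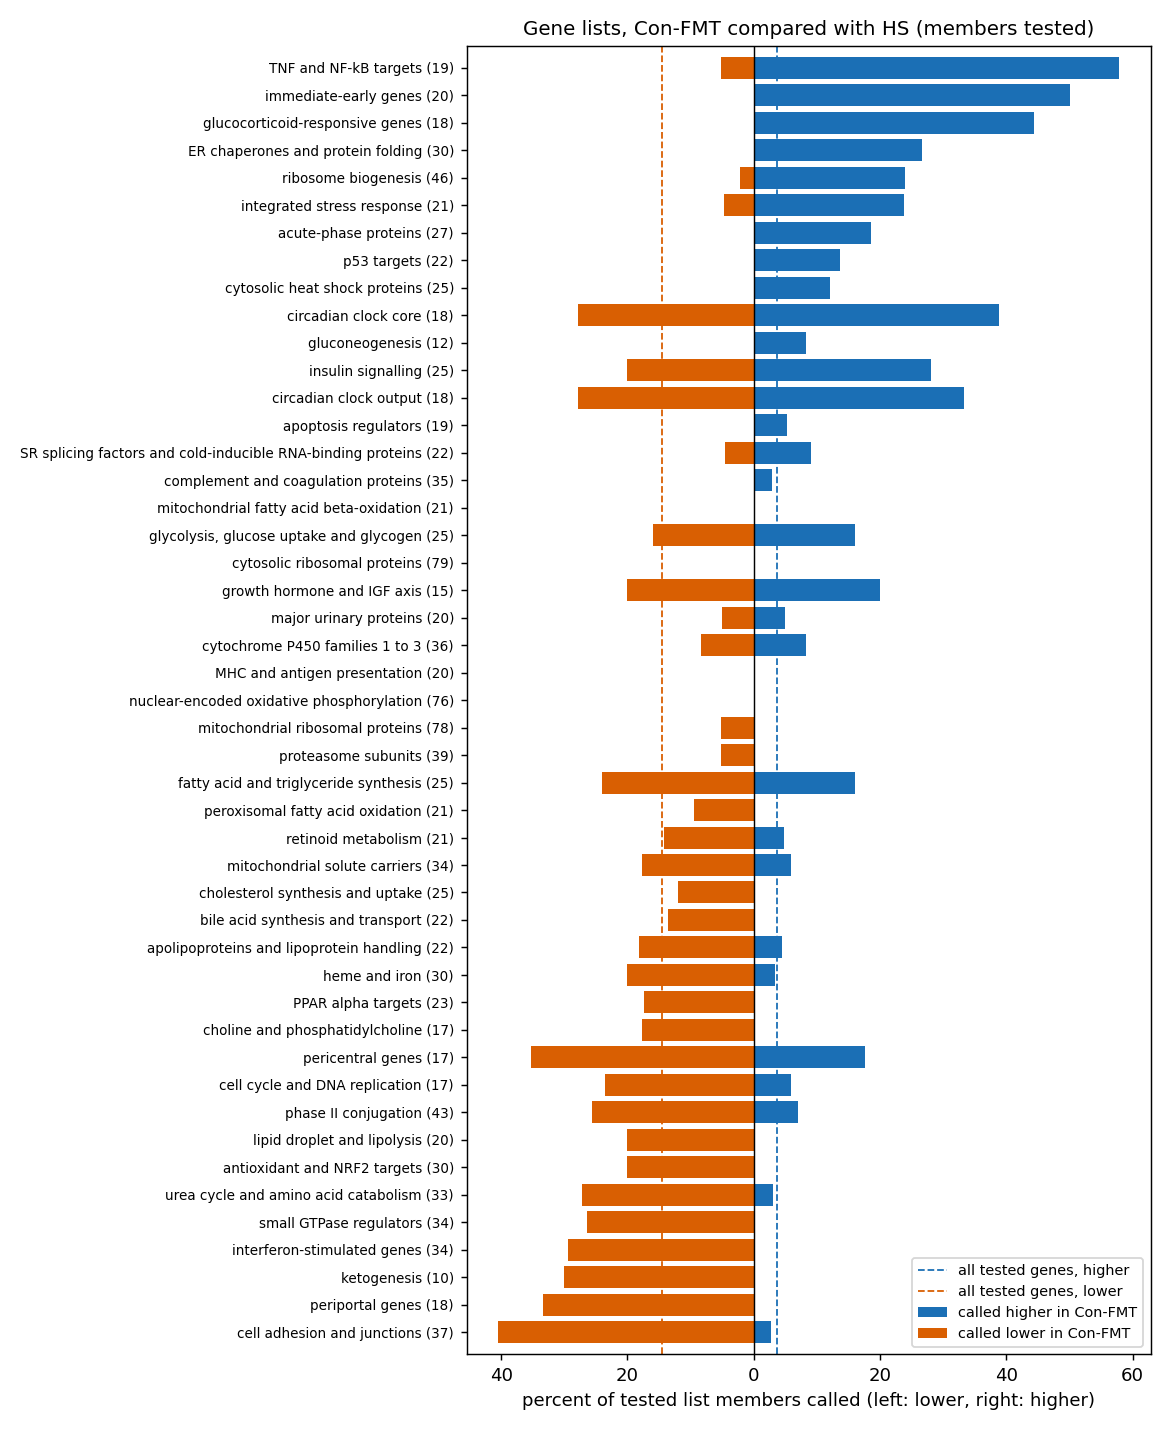
Percent of the tested members of each pathway list called higher (blue, right) and lower (orange, left) in Con-FMT compared with HS, with the number tested in parentheses. Dashed lines mark the percent of all 10159 tested genes called higher, 3.68, and lower, 14.5, so that TNF and NF-kB targets (11 of 19 higher), immediate-early (10 of 20) and glucocorticoid-responsive genes (8 of 18) reach farthest to the right and cell adhesion genes (15 of 37 lower) farthest to the left.

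Lipid genes were called in both directions. For bile acid (3 of 22), retinoid (3 of 21), lipoprotein (4 of 22), PPAR alpha (4 of 23), choline (3 of 17) and mitochondrial carrier genes (6 of 34), the share of lower calls was near the 14.5% of all genes. Of 25 genes of cholesterol synthesis and uptake, 3 were called lower and 0 higher, under the 14.5% of all genes, and 24 had a log2 change below 0, with a median of -1.06. Sc5d, a sterol desaturase, had 41.1, 94.2 and 104 RPKM in HS and 46.9, 38.8 and 22.7 RPKM in Con-FMT, a log2 change of -1.07 ± 0.33 (SE, adjusted p = 0.0438). Srebf2, the transcription factor that controls the pathway, went from 5.43, 14.8 and 12.3 to 6.18, 4.05 and 5.29 RPKM (log2 change -0.86, adjusted p = 0.0432). HS replicate 1 lay inside the range of Con-FMT in both genes, and only HS replicates 2 and 3 were above it. None of the 25 genes had non-overlapping groups, against 35% of all genes. 1 was called without replicate 3, and 0 after median scaling or with HS and Con-FMT alone.

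Among 25 lipogenic genes, for fatty acid and triglyceride synthesis, 4 were called higher (Lpin1, Thrsp, Lpin2 and Dgat2) and 6 lower. Of all genes, 3.68% were higher and 14.5% lower. Thrsp, which promotes fatty acid synthesis, had 6.19, 49.96 and 65.2 RPKM in HS and 361, 266 and 289 RPKM in Con-FMT, a log2 change of 3.39 ± 0.67 (SE, adjusted p = 0.00699). Acacb, the acetyl-CoA carboxylase of the mitochondrial surface, went from 2.09, 5.9 and 7.89 to 1.99, 1.13 and 1.18 RPKM (log2 change -1.26, adjusted p = 0.026), and Elovl5, an elongase of polyunsaturated fatty acids, from 312, 258 and 262 to 211, 125 and 84.02 RPKM (log2 change -1.08, adjusted p = 0.0215). Fasn, Acaca, Acly and Scd1 were not called. Without replicate 3, 4 were higher and 2 lower.

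Of 23 PPAR alpha targets, 4 were called lower and 0 higher, which included the droplet genes G0s2, Plin2 and Plin5. G0s2, an inhibitor of the lipase ATGL, had 92.1, 31.6 and 18.5 RPKM in HS and 8.76, 3.24 and 4.64 RPKM in Con-FMT, a log2 change of -2.66 ± 0.60 (SE, adjusted p = 0.0136). Plin2, which coats lipid droplets, fell from 414, 282 and 173 to 162, 119.9 and 122 RPKM (log2 change -1.02, adjusted p = 0.0203), and Pdk4, a kinase that closes pyruvate dehydrogenase, from 2.25, 1.77 and 1.22 to 0.71, 0.26 and 0.83 RPKM (log2 change -0.78, adjusted p = 0.0232). The 4 calls stood without replicate 3, and 1 with HS and Con-FMT alone. Of 20 droplet and lipolysis genes, 4 (20%) were lower, near the 14.5% of all genes. They were G0s2, Plin2 and Plin5, already counted as PPAR alpha targets, and the lysosomal lipase Lipa (log2 change -0.66, adjusted p = 0.0079). Of 10 ketogenesis genes, 3 were lower, where 14.5% of all genes were. They were Pdk4, also counted above, and the monocarboxylate transporters Slc16a1 (log2 change -0.96, adjusted p = 0.00723) and Slc16a6 (log2 change -0.74, adjusted p = 0.0147). None of 21 mitochondrial beta-oxidation genes was called by limma, nor without replicate 3 or after median scaling, and 2 passed an unadjusted p of 0.05. Cpt2, which releases fatty acids from carnitine in the matrix, had 109, 88.7 and 76.2 RPKM in HS and 68.8, 57.6 and 70.3 RPKM in Con-FMT (adjusted p = 0.0539). Acad10, an acyl-CoA dehydrogenase, had 23.4, 19.2 and 20.1 and 19.04, 15.9 and 17.6 RPKM (adjusted p = 0.153). Of 21 peroxisomal genes, 2 were lower, under the 14.5% of all genes. They were the carnitine acetyltransferase Crat (log2 change -1.12, adjusted p = 0.0281) and Amacr, which handles branched-chain acids (log2 change -0.45, adjusted p = 0.0175).

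Of 22 genes of bile acid synthesis and transport, 3 were called lower and 0 higher. Abcb11, the bile salt export pump of the canaliculus, had 87.7, 106 and 98.99 RPKM in HS and 52.2, 59.04 and 53.2 RPKM in Con-FMT, a log2 change of -0.82 ± 0.12 (SE, adjusted p = 0.00197), with every HS library above every Con-FMT library. Cyp8b1, which sets the share of cholic acid, fell from 249, 383 and 263 to 241, 122 and 135 RPKM (log2 change -0.88, adjusted p = 0.0299), and the uptake carrier Slco1a4 from 9.03, 22.9 and 10 to 4.23, 2.12 and 7.81 RPKM (log2 change -1.40, adjusted p = 0.0496). Abcb11 was the one of the 3 that was still called with HS and Con-FMT alone (adjusted p = 0.0155). Of 21 retinoid genes 3 were lower, the receptors Rarb (1.31, 1.87 and 2.32 against 0.69, 0.53 and 0.60 RPKM, log2 change -0.80, adjusted p = 0.00572) and Rara (log2 change -0.53, adjusted p = 0.0196) and the aldehyde dehydrogenase Aldh1a7 (log2 change -0.64, adjusted p = 0.0473), and 1, the retinol dehydrogenase Rdh5, was higher (log2 change 0.41, adjusted p = 0.0487). Rdh5 was not called without replicate 3. Of 22 genes of lipoprotein handling, 1 was higher and 4 lower. Apobec1, which edits the mRNA of apolipoprotein B, rose from 11.1, 15.7 and 13.4 to 41.95, 63.6 and 30.3 RPKM (log2 change 1.63, adjusted p = 0.00228). Apoa4 fell from 1683, 1339 and 709.7 to 710.2, 461 and 534 RPKM (log2 change -1.06, adjusted p = 0.0349), and Apoc2 and Lpl, the activator of lipoprotein lipase and that lipase, had log2 changes of -0.82 and -0.69. The groups overlapped for Apoa4, and Apoa4 and Apoc2 were called neither without replicate 3 (adjusted p = 0.0713 and 0.0778) nor after median scaling (0.0538 and 0.0695). Of 17 choline and phosphatidylcholine genes, 3 were lower, Pcyt2 (-0.55), Pcyt1a (-0.40) and Etnk1 (-0.38 on the log2 scale).

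Among genes of glucose handling, changes went both ways. Of 25 genes of insulin signalling, 7 were called higher and 5 lower. Of all genes, 3.68% were higher and 14.5% lower, so the lower calls of this list were near the share of all genes. Igfbp1, a secreted IGF-binding protein that insulin represses, had 25.6, 48.02 and 34.9 RPKM in HS and 92.3, 273 and 139 RPKM in Con-FMT, a log2 change of 2.09 ± 0.52 (SE, adjusted p = 0.0201). Irs2, an adaptor of the insulin receptor, rose from 3.26, 3.54 and 4.65 to 7.06, 5.13 and 9.67 RPKM (log2 change 0.76, adjusted p = 0.0153), and the forkhead factors Foxo3 and Foxo1 from 4.06, 5.19 and 6.5 to 10.2, 10.9 and 8.91 RPKM (log2 change 0.83, adjusted p = 0.00442) and from 5.89, 6.34 and 6.72 to 10.7, 9.19 and 10.1 RPKM (log2 change 0.59, adjusted p = 0.00202). Foxo1 was the called member among 12 gluconeogenesis genes. Of 25 genes of glycolysis, glucose uptake and glycogen, 4 were higher and 4 lower, the lower calls again near the share of all genes. Pfkfb3, which makes the activator of phosphofructokinase, rose from 2.01, 5.23 and 2.66 to 28.6, 29.1 and 29.1 RPKM (log2 change 2.87, adjusted p = 0.000762). Gys2, the liver glycogen synthase, rose from 47.8, 42.9 and 37.9 to 77.1, 71.3 and 71.7 RPKM (log2 change 0.77, adjusted p = 0.00507), and Slc2a1, a glucose carrier, fell from 6.54, 5.69 and 5.35 to 3.89, 2.65 and 2.78 RPKM (log2 change -0.75, adjusted p = 0.00381). These 3 genes were called without replicate 3 and with HS and Con-FMT alone.

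Of 15 genes of the growth hormone and IGF axis, 3 were higher and 3 lower, where 3.68% of all genes were higher and 14.5% lower. The lower calls were thus near the share of all genes. Socs2, an inhibitor of growth hormone signalling, rose from 12.3, 10.9 and 6.39 to 31.1, 36.98 and 21.5 RPKM (log2 change 1.51, adjusted p = 0.0143). Igfbp2 fell from 728, 677 and 463 to 293, 232 and 204 RPKM (log2 change -1.34, adjusted p = 0.00223), and Stat5a, the signal transducer, from 4.78, 3.58 and 3.64 to 1.6, 1.29 and 2.36 RPKM (log2 change -0.87, adjusted p = 0.00383). Of 20 major urinary protein genes, a family of near-identical copies, 1 was higher and 1 lower, Mup21 (0.99) and Mup12 (-0.57).

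Of 33 genes of the urea cycle and amino acid catabolism, 9 were called lower and 1, Tdo2, higher, where 14.5% of all genes were lower. Oat, ornithine aminotransferase, had 353, 505 and 514 RPKM in HS and 134, 225 and 221 RPKM in Con-FMT, a log2 change of -1.26 ± 0.25 (SE, adjusted p = 0.00799). Cbs, which opens transsulfuration, fell from 175, 186 and 257 to 110.4, 103 and 121 RPKM (log2 change -0.86, adjusted p = 0.00296), Gls2, the liver glutaminase, from 149, 153 and 239 to 79.8, 84.8 and 140.2 RPKM (log2 change -0.84, adjusted p = 0.0271), and Hal, histidine ammonia lyase, from 113, 87.2 and 133 to 62.9, 60.99 and 70.4 RPKM (log2 change -0.75, adjusted p = 0.0176). After median scaling 6 were lower and 2 higher. The cycle enzymes Cps1, Otc, Ass1, Asl and Arg1 were not called.

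Genes of detoxification were called in both directions. Of 43 phase II conjugation genes, 11 were lower and 3 higher, and 6 and 3 after median scaling. Of all genes, 14.5% were lower and 3.68% higher, and 8.72% and 6.14% after median scaling. Gsta2, a glutathione transferase, had 27.2, 33.98 and 83.4 RPKM in HS and 7.84, 6.25 and 11.96 RPKM in Con-FMT, a log2 change of -2.22 ± 0.41 (SE, adjusted p = 0.00552). Gstt3 fell from 9.12, 12.1 and 14.8 to 2.06, 2.95 and 5.06 RPKM (log2 change -1.61, adjusted p = 0.00176), and the glucuronosyltransferase Ugt2b37 rose from 0.68, 1.28 and 0.88 to 4.95, 8.08 and 1.8 RPKM (log2 change 1.46, adjusted p = 0.0152). Members of both families are similar in sequence, and reads could have been split between them. Of 36 cytochrome P450 genes and their reductase, 3 were higher and 3 lower: Cyp3a59 fell from 19.9, 16.99 and 15.9 to 7.31, 7.85 and 8.61 RPKM (log2 change -1.06, adjusted p = 0.000677), Cyp3a44 had a log2 change of -1.36, Cyp2d40 rose from 85.96, 72.6 and 69.4 to 113, 125 and 139 RPKM (log2 change 0.72, adjusted p = 0.00223), and Por, the reductase, from 67.4, 99.4 and 86.8 to 131, 126 and 277 RPKM (log2 change 0.98, adjusted p = 0.0276). Of 30 antioxidant and NRF2 target genes, 6 (20%) were lower, near the 14.5% of all genes, and 0 higher. The lower ones included Nfe2l2, which encodes NRF2 (40.5, 46.4 and 42.02 against 30.9, 32.2 and 31.8 RPKM, log2 change -0.43, adjusted p = 0.0184), Nqo1 (-0.49), Srxn1 (-0.66) and Gss (-0.39). Without replicate 3, 2 were lower, and Nqo1, Srxn1 and Gss were not called (adjusted p = 0.112, 0.135 and 0.104). After median scaling this list turned, with 3 higher and 1 lower.

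Of 34 interferon-stimulated genes, 10 were called lower and 0 higher, where 14.5% of all genes were lower. The log2 change was below 0 in 34 of 34, against 69.8% of all genes, with a median of -0.48. Dhx58, a sensor of viral RNA, had 8.26, 6.21 and 8.53 RPKM in HS and 3.4, 3.92 and 4.16 RPKM in Con-FMT, a log2 change of -0.84 ± 0.11 (SE, adjusted p = 0.00104). Oasl1 fell from 8.98, 5.72 and 12.4 to 3.72, 2.76 and 3.26 RPKM (log2 change -1.19, adjusted p = 0.00366), and Cmpk2, a nucleotide kinase, from 2.89, 1.74 and 2.66 to 0.77, 0.72 and 1 RPKM (log2 change -0.89, adjusted p = 0.00857). The libraries of the 2 groups were apart for these genes. Usp18, which removes the ubiquitin-like ISG15, fell from 9.44, 8.07 and 9.25 to 3.24, 6.85 and 2.17 RPKM (log2 change -1.07, adjusted p = 0.0183), with Con-FMT replicate 2 well above the other Con-FMT libraries. Without replicate 3, 10 were lower, after median scaling 5 and with HS and Con-FMT alone 4. Of all genes, 12.6%, 8.72% and 5.82% were lower in these fits. Of 20 genes of antigen presentation, 0 were called by limma in any of these fits, with 1 at an unadjusted p under 0.05. H2-Eb1 had 3.96, 6.87 and 3.93 RPKM in HS and 1.67, 0.28 and 2.05 RPKM in Con-FMT (adjusted p = 0.0569), and Psmb9 48.99, 36.6 and 55.7 and 22.1, 58.8 and 19.7 RPKM (adjusted p = 0.237).

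Cell contact genes had the highest share of lower calls among the pathway lists on the deposited scale, and after median scaling pericentral genes did (6 of 17). Of 37 genes of adhesion and junctions, 15 were lower, where 14.5% of all genes were, and 1, Cldn14, was higher. Groups did not overlap for 23, against 35% of all genes. Tjp3 encodes a scaffold protein that ties tight junctions to actin. Tjp3 had 13.3, 14.6 and 15.3 RPKM in HS and 6.24, 5.14 and 4.5 RPKM in Con-FMT, a log2 change of -1.30 ± 0.13 (SE, adjusted p = 0.000365). Cldn1, a claudin of the tight junction, fell from 50.2, 39.2 and 51.7 to 22.7, 13.9 and 13.7 RPKM (log2 change -1.46, adjusted p = 0.00124), and Itga5, the fibronectin receptor subunit, from 8.96, 10.4 and 10.9 to 4.35, 4.48 and 3.4 RPKM (log2 change -1.13, adjusted p = 0.000607). Ceacam1, an adhesion molecule that also takes part in insulin clearance, fell from 51.9, 52.2 and 55.1 to 28.8, 18.3 and 8.83 RPKM (log2 change -1.60, adjusted p = 0.00655), with the lowest value in Con-FMT replicate 3, and was called without it (-1.17, adjusted p = 0.00544). Without replicate 3, 15 were lower, after median scaling 11 and with HS and Con-FMT alone 9. The shares of all genes in these 3 fits were 12.6%, 8.72% and 5.82%. Tjp1, Ocln and the connexins Gjb1 and Gjb2 were not called. Endothelial markers summed to 90.4 to 105 RPKM in HS and 66.0 to 97.1 RPKM in Con-FMT, with 3 of 11 tested called lower and 0 higher. Without replicate 3, 1 was called lower and 1 higher. The log2 change was below 0 in 9 of the 11 and above 0 in 2, so these markers did not all fall. The part of endothelial cells in the adhesion genes was not tested.

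**Figure D5:**
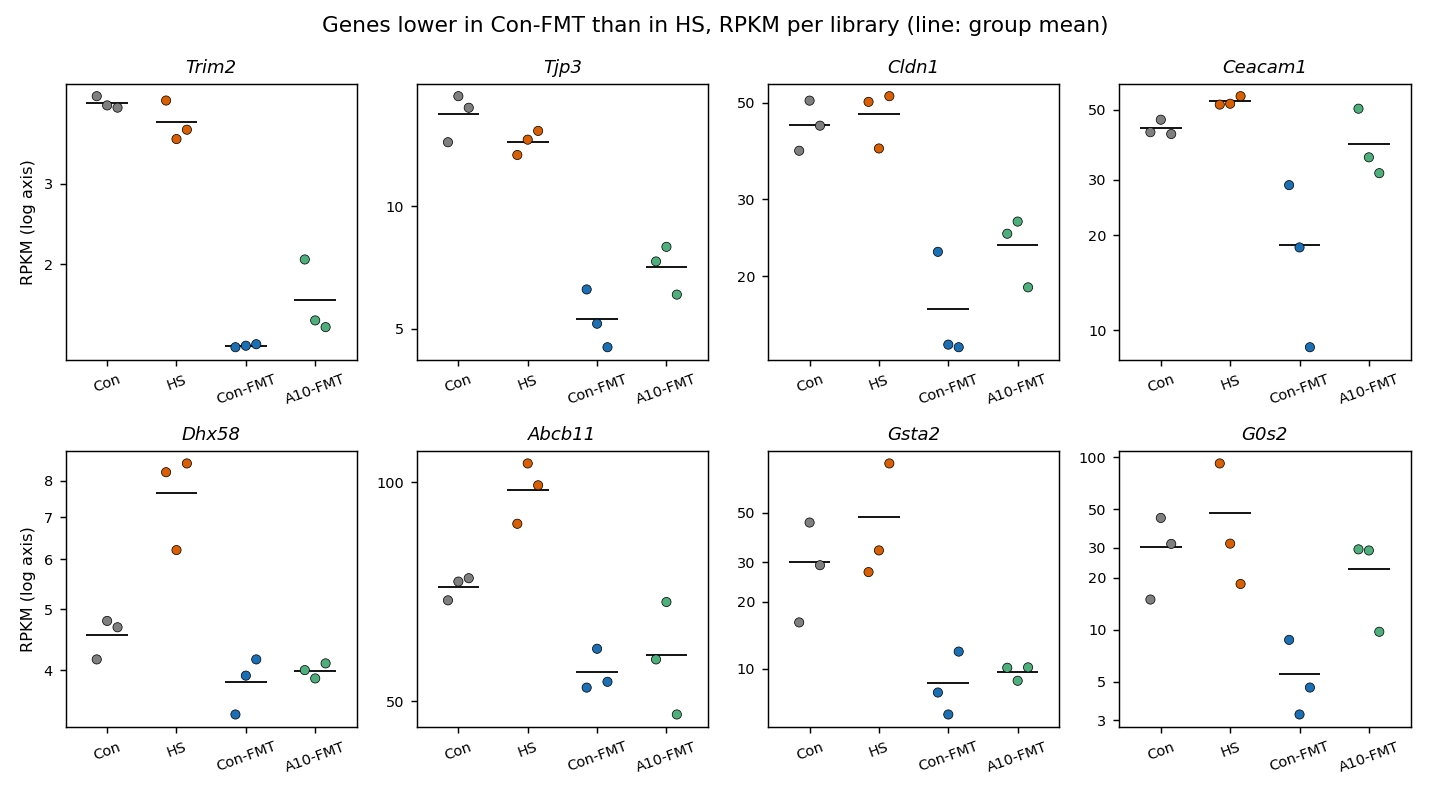
RPKM on a log axis in each library of Con, HS, Con-FMT and A10-FMT for 8 genes that were lower in Con-FMT, replicates 1 to 3 from left to right and a line at the group mean. HS and Con-FMT do not overlap in any of them, and for Dhx58, Abcb11 and Ceacam1 the 3 Con libraries also lie under HS.

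Of 34 small GTPase regulators, 9 were lower and 0 higher, with Arhgap29 at 13.01, 13.4 and 14.9 RPKM in HS and 6.59, 5.89 and 9.89 RPKM in Con-FMT (log2 change -0.83, adjusted p = 0.00653) and Dock8 at 4.51, 5.21 and 6.53 and 3.02, 3.54 and 2.85 RPKM (log2 change -0.62, adjusted p = 0.00699). Fgd4 and Arhgef40 had log2 changes of -0.48 and -0.45, and neither was called without replicate 3. Lower calls made up 26.5% of these regulators, against 14.5% of all genes. Of 17 cell cycle genes, 4 were lower and 1, Ccne1, higher (log2 change 0.75, adjusted p = 0.0249). The shares of all genes were 14.5% lower and 3.68% higher. Ccnd1, the cyclin that opens the G1 phase, fell from 12.1, 13.5 and 12.9 to 5.1, 5.94 and 2.37 RPKM (log2 change -1.41, adjusted p = 0.0134), and the replication genes Cdt1 and Mcm7 had log2 changes of -0.73 and -0.66. Of 22 splicing and cold-inducible genes, 2 were higher, Tra2a (0.40) and Srsf11 (0.26), and 1 lower, Srsf3 (-0.34).

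Genes zoned along the lobule were called at both ends, where 14.5% of all genes were lower and 3.68% higher. Of 18 periportal genes, 6 were lower and 0 higher, among them Etnppl (40.6, 88.5 and 97.8 against 29.3, 14.2 and 32.9 RPKM, log2 change -1.52, adjusted p = 0.0317) and the cadherin Cdh1 (13.2, 11.9 and 23.1 against 8.77, 7.54 and 7.53 RPKM, log2 change -0.88, adjusted p = 0.0222). Of 17 pericentral genes, 6 were lower and 3 higher. Axin2, a feedback target of Wnt signalling, had 2.52, 1.97 and 2.03 RPKM in HS and 0.67, 0.64 and 0.71 RPKM in Con-FMT, a log2 change of -0.92 ± 0.13 (SE, adjusted p = 0.0014). Tbx3 fell from 6.84, 7.73 and 6.2 to 3.19, 2.99 and 3.32 RPKM (log2 change -0.92, adjusted p = 0.00784), and Rnf43, a Wnt antagonist, from 4, 3.51 and 2.79 to 1.9, 1.16 and 2.37 RPKM (log2 change -0.67, adjusted p = 0.0174). The higher ones, named after their values were seen, were Rgn, Cyp2e1 and Lect2, of which only Lect2 was called without replicate 3.

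Of 30 genes of heme and iron, 6 were lower and 1 higher, where 14.5% of all genes were lower and 3.68% higher. Slc39a14, which carries zinc and iron into hepatocytes, rose from 26.7, 34.2 and 33.5 to 69.8, 76.8 and 104 RPKM (log2 change 1.37, adjusted p = 0.000479). Hfe2, hemojuvelin, which senses iron for hepcidin, fell from 27.8, 25.2 and 25.6 to 13.6, 10.8 and 16.1 RPKM (log2 change -0.92, adjusted p = 0.00208), Steap3 from 17.1, 9.53 and 13.9 to 6.7, 6.8 and 6.66 RPKM (log2 change -0.87, adjusted p = 0.0042) and Smad6 had a log2 change of -0.72. Of 34 mitochondrial carriers, 2 were higher and 6 lower, with Slc25a51, the NAD carrier, up from 9.82, 13.9 and 17.5 to 25.7, 29.1 and 35.8 RPKM (log2 change 1.10, adjusted p = 0.00467) and Slc25a22, a glutamate carrier, down from 105, 113 and 105 to 65.3, 66.2 and 53.4 RPKM (log2 change -0.80, adjusted p = 0.00105). Slc25a10 and Slc25a45 had log2 changes of -0.71 and -0.66. None of 76 nuclear oxidative phosphorylation genes was called by limma, with a median of -0.11, the same as all genes, and 6 at an unadjusted p under 0.05. Without replicate 3 there was 1 call. Sdhd, a subunit of complex II, had 112, 104 and 91.5 RPKM in HS and 83.4, 70 and 89.8 RPKM in Con-FMT (adjusted p = 0.0757), and Ndufa3, of complex I, 281, 279 and 253 and 207, 247 and 194 RPKM (adjusted p = 0.0887). Of 78 mitochondrial ribosomal proteins, 4 were lower, with log2 changes from -0.40 (Mrps27) to -0.33 (Mrps22), and 1 after median scaling. Of 39 proteasome subunits 2 were lower, Psmd11 (-0.32) and Psmc4 (-0.27), and 0 without replicate 3. Lower calls made up 5.13% of mitochondrial ribosomal proteins and 5.13% of proteasome subunits, under the 14.5% of all genes.

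Among the erythroid markers, hemoglobin genes were called. Hbb-bs was at 183, 1895 and 1094 RPKM in HS and 1.17, 142 and 3.42 RPKM in Con-FMT, with a log2 change of -6.03 (adjusted p = 0.0466). Hba-a1 was at 2598, 7770.4 and 4216 and 3474, 702 and 729.9 RPKM (log2 change -1.86, adjusted p = 0.0466), with Con-FMT replicate 1 inside the range of HS. Con had 0.85, 220.2 and 91.8 RPKM of Hbb-bs. Of 6 tested erythroid markers 3 were called lower, and 0 without replicate 3 or with HS and Con-FMT alone. Con-FMT replicate 1, with 1.17 RPKM of Hbb-bs, had 1798 RPKM of the beta-globin gene Hbb-b1, and Con replicate 1 had 0.85 and 986 RPKM. The low Hbb-bs values were thus not shared by all beta-globin genes. The beta-globin genes are near-identical copies of each other, as are the alpha-globin genes. Whether the genotype of the animals had a part in the Hbb-bs call was not tested. The part of blood content in other lists was not tested.

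A last list held the liver genes with separate mRNA or protein assays in this experiment: 11 were tested, none was called by limma, 0 had an unadjusted p under 0.05, and their groups overlapped in all 11. Nr1h3, the oxysterol receptor LXR alpha, had 42.3, 48.4 and 50.5 RPKM in HS and 44.5, 41.8 and 41.5 RPKM in Con-FMT. Cyp7a1, the rate-limiting enzyme of bile acid synthesis, had 5.36, 45.7 and 22.5 RPKM in HS and 38.7, 33.1 and 15.9 RPKM in Con-FMT. Cyp7a1 varied several-fold within each group. Nr1h4, the bile acid receptor FXR, had 70.8, 58.9 and 55.1 and 60.5, 56.4 and 73.9 RPKM, Gpx1, glutathione peroxidase, 2295, 1971 and 2029 and 2019, 2109.9 and 1862 RPKM, and Rbp4, the retinol carrier of blood, 3629.9, 3793 and 2799.9 and 3574, 3148 and 3109 RPKM. The adjusted p was 0.276 for Nr1h3, 0.512 for Cyp7a1 and 0.855 for Nr1h4.

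Compared directly with A10-FMT, Con-FMT had 1401 called genes of 10159 (13.8%), 908 higher (8.94%) and 493 lower (4.85%). This contrast is also the test of whether the changes from HS differed between the 2 recipient groups, since HS cancels. After median scaling 688 were higher and 936 lower, so the balance of directions rested on scale. Several groups of genes above stood apart here too. Of 30 ER folding genes, 25 were higher in Con-FMT than in A10-FMT and 0 lower (20 after median scaling and 21 without replicate 3, where 6.77% and 6.94% of all genes were higher). Of 25 heat shock proteins 17 were higher (13 and 12), of 27 acute-phase proteins 16 (11 and 8), of 46 ribosome biogenesis genes 21 (19 and 20), of 19 TNF and NF-kB targets 11 (10 and 9) and of 18 glucocorticoid-responsive genes 10 (8 and 8). Mt2 was at 18.6, 25.4 and 13.8 RPKM in A10-FMT, a log2 difference of 5.92 ± 0.72 (SE, adjusted p = 0.00107). Herpud1 was at 157, 151 and 204 RPKM in A10-FMT, a log2 difference of 1.52 ± 0.20 (SE, adjusted p = 0.00148). Creld2 was at 12.1, 8.9 and 22.03 RPKM in A10-FMT, a log2 difference of 3.05 ± 0.39 (SE, adjusted p = 0.00125). A10-FMT thus lay under HS for Creld2 and near HS for Mt2. Of the 18 core clock genes, 0 were higher and 1 lower than in A10-FMT, and of the 34 interferon-stimulated genes, 2 and 1. Ciart had 17.9, 8.82 and 13.2 RPKM in A10-FMT, a log2 difference of -0.15 ± 0.19 (SE, adjusted p = 0.659), a difference within the spread of these libraries.

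By smallest adjusted p among genes without overlap, Con-FMT exceeded A10-FMT in Zbtb16, Eif1a, Zfp9 and Ptp4a1. Eif1a, a translation initiation factor, had 17.1, 19.5 and 22.1 RPKM in HS, 40.3, 35.04 and 40.4 RPKM in Con-FMT and 13.6, 14.1 and 13.5 RPKM in A10-FMT, a log2 difference of 1.42 ± 0.097 (SE, adjusted p = 5.91e-05) from A10-FMT. Zfp9, a zinc-finger gene, had 1.29, 1.92 and 1.51 RPKM in HS, 3.78, 3.41 and 3.54 RPKM in Con-FMT and 0.45, 0.44 and 0.71 RPKM in A10-FMT. HS lay between the recipient groups for both genes. Con-FMT was lower than A10-FMT in Fgfr3, Slc12a7, Bmf and Slc2a5. Slc12a7, a potassium-chloride cotransporter, had 12.4, 13.1 and 13.2 RPKM in HS, 5.32, 5.6 and 6.3 RPKM in Con-FMT and 18.1, 12.8 and 13.8 RPKM in A10-FMT, a log2 difference of -1.23 ± 0.12 (SE, adjusted p = 0.000402) from A10-FMT. Bmf, a BH3-only gene of apoptosis, had 0.56, 0.35 and 0.51 RPKM in HS, 0.35, 0.36 and 1.28 RPKM in Con-FMT and 4.6, 4.43 and 4.12 RPKM in A10-FMT, so that A10-FMT was high beside both of the others. Fgfr3, a growth factor receptor, and Slc2a5, a fructose carrier, had 4.5, 4.48 and 4.23 and 2.85, 2.8 and 2.22 RPKM in Con-FMT and 9.46, 8.37 and 8.33 and 5.97, 5.03 and 5.67 RPKM in A10-FMT.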

How the data were processed

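Liver RNA was sequenced by the authors on a HiSeq 2500 after oligo(dT) enrichment. The study's methods name SOAPaligner (v.2.20), the submitters' processing notes Bowtie 0.12.2 and mm10. Which made the values is not given in the sources used here. The authors deposited RPKM per gene and library for 19057 genes, with 2 decimals, and 26 symbols had become dates. Values were used without rescaling, as log2(RPKM + 1), so fold changes of low genes are understated. Genes averaging 1 RPKM or more in Con, HS, A10-FMT and Con-FMT (12 libraries) were fitted with limma 3.58.1 in R 4.3.3 (1 mean per group, variance trend, two-sided, Benjamini-Hochberg adjustment over all tested genes, called at 0.05, 8 residual degrees of freedom). An exact permutation test of 3 against 3 libraries cannot go below p = 0.1. Tested on data simulated for Con-FMT and HS over 10159 genes, the fit called 184 of 200 genes given a log2 change of 1.

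Genes, the 48 pathway and 12 marker lists, and the promoters were chosen with earlier results of these data known. The text names, per direction, 12 called genes without overlap and with the smallest adjusted p; per list, up to 4 called members with the largest change, or up to 2 uncalled ones; genes of the study; and, for Con-FMT against A10-FMT, 4 per direction. Some genes that these rules name are not reported here. Relative depth came from the smallest steps of 23 genes. Positions and promoters came from RefSeq (GRCm38.p6), which matched 184 of 184 named genes and held windows for 151. Python 3.11.15 was used for these and matplotlib 3.10.9 for figures. Alternatives were other pseudocounts, filters, scalings and sets of libraries, a block for the replicate number, and each HS and Con-FMT replicate left out in turn (no A10-FMT or Con library was). Fits without Con, and of HS and Con-FMT without replicate 3, were chosen after seeing the data.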

Additional observations from a re-analysis of the deposited data

Results flagged for a closer look

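The 2 recipient groups differed from each other at 1401 genes, by the contrast of Con-FMT with A10-FMT in the fit across all genes (limma, adjusted p under 0.05). Because HS enters both changes alike, this is a direct test of the difference between them. Among the genes chosen by adjusted p without overlap, the log2 difference, Con-FMT minus A10-FMT, was 2.28 in Zbtb16, 1.42 in Eif1a, 1.58 in Zfp9 and 1.46 in Ptp4a1. On the other side it was -0.85 in Fgfr3, -1.23 in Slc12a7, -1.74 in Bmf and -0.86 in Slc2a5. Groups of 3 libraries are too small for a test of single outlying libraries.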

How the results depend on the processing

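The number of reads per library is unknown, 3 libraries a group limit the precision, and the direction of small changes depends on scale. Compared with HS (1849 genes called, 374 higher and 1475 lower), the count was 968 (243 and 725) at a mean of at least 5 RPKM, 1085 (830 lower) at the same RPKM sum without pancreatic markers, 777 (182 and 595) with the 6 libraries of both groups, and 49 (27 and 22) at an adjusted p of at most 0.001 and a log2 change of at least 1, the thresholds of the study's methods. Higher and lower genes numbered 643 and 786 after quantile normalization, 624 and 886 after median scaling, and 590 and 727 after median scaling without Con-FMT replicate 3. HS and Con-FMT without replicate 3, a fit chosen after seeing the data, gave 412 (118 and 294). Leaving out 1 HS or Con-FMT library gave 1105 (without Con-FMT replicate 2) to 1603 (without Con-FMT replicate 3), 247 (without HS replicate 1) to 330 higher and 826 to 1273 lower, with 1199 and 895 without HS replicate 2. The median log2 change of all genes moved from -0.11 to -0.047 without a filter, -0.017 after quantile normalization, -0.016 after median scaling and -0.015 after median scaling without replicate 3. Compared with A10-FMT (1401, 908 and 493), it was 933 (266 lower) at 5 RPKM and 19 (16 and 3) at the study's thresholds, and lower genes numbered 876 after quantile normalization, 936 after median scaling, 208 at the same sum and 795 after median scaling without replicate 3. Leaving out 1 HS or Con-FMT library gave 884 (without Con-FMT replicate 1) to 1502 (1159 without Con-FMT replicate 3), 562 to 982 higher (703) and 287 (without Con-FMT replicate 2) to 520 lower (456). The cause of these shifts was not tested, beyond the fewer genes or libraries in some fits.

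Of 3620 values of named genes under the alternatives, 2907 kept direction and side of the threshold, 688 lost and 6 gained a call, and 19 changed sign, all in genes that were not called. After median scaling these were Gpx1 (0.045), Rbp4 (0.069) and Alb (0.093), and with replicate 3 also left out Bax (0.068), Nr1h3 (0.016), Gpx1 (0.12), Rbp4 (0.13), Alb (0.24) and Bmf (-0.076). Without replicate 3 they were Nr1h4 (-0.067), Alb (0.10) and Bmf (-0.12). The first 2 had the same values in the fit of only HS and Con-FMT libraries that also left out replicate 3. Over single libraries left out, these log2 changes reached 1.21 in Cyp7a1, -0.18 in Rbp4, 0.15 in Nr1h4, -0.13 in Alb and 0.26 in Bmf at their other end. Without HS replicate 1 they were Cyp7a1 (-0.22) and Rbp4 (0.0051), without HS replicate 2 Rbp4 (0.037), and without HS replicate 3 Nr1h4 (-0.031) and Alb (0.067).

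Same-numbered HS and Con-FMT libraries did not deviate together (correlations of -0.075, -0.041 and 0.036 across genes), and pairs with different numbers had -0.072 to 0.155. No pairing by number was seen in these values, and whether libraries of 1 number shared a batch was not tested. With a replicate block, 1552 genes were called compared with HS and 1124 compared with A10-FMT.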

Other observations

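The beta-globin pair Hbb-b1 and Hbb-b2 ordered the libraries differently from the pair Hbb-bs and Hbb-bt. Hbb-b1 was at 1327, 2006 and 1140.05 RPKM in HS and 1798, 210.11 and 362 RPKM in Con-FMT, and Hbb-b2 was at 222, 367 and 194 RPKM in HS and 319, 36.5 and 62.3 RPKM in Con-FMT. For comparison, Hbb-bs was at 183, 1895 and 1094 RPKM in HS and 1.17, 142 and 3.42 RPKM in Con-FMT, and Hbb-bt at 25.3, 254 and 138 RPKM in HS and 0.45, 20.95 and 0.19 RPKM in Con-FMT. Con-FMT replicate 1 thus had the second highest Hbb-b1 value of these libraries and the lowest Hbb-bs value. Alas2, the heme synthesis enzyme of red cells, was at 78.9, 119 and 125 RPKM in HS and 143, 119 and 142 RPKM in Con-FMT. These copies are similar in sequence, these genes were chosen after their values were seen, and the cause was not tested.

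Of 11 tested markers of stellate cells and fibroblasts 1 was called lower in Con-FMT, with sums of 135 to 218 RPKM in HS and 109.87 to 137 RPKM in Con-FMT. Of 10 hepatocyte, 3 cholangiocyte, 4 adipocyte, 1 T, B and NK cell and 1 islet marker tested, none was called by limma, and 2, 0, 1, 0 and 0 had an unadjusted p under 0.05. The islet markers summed to 38.7 RPKM in Con-FMT replicate 3. Adipocyte markers summed to 45.9 RPKM in that library, against 20.3 and 18.2 RPKM in Con-FMT replicates 1 and 2 and 16.0 to 28.9 RPKM in HS. Among them Cfd was at 11.7 and Adipoq at 2.44 RPKM. T, B and NK cell markers summed to 7.6 RPKM there, against 2.79 and 3.58 RPKM in replicates 1 and 2 and 3.88 to 5.53 RPKM in HS. The source of this mRNA was not tested. No skeletal muscle marker passed the expression filter.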
